A study of Mus musculus with 7 samples.

Results

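L1Md loci are the mouse-specific copies of the LINE-1 retrotransposon, and the loci described here are those shorter than a whole element. They were taken from a table of read counts per RepeatMasker locus by name and length, as every locus whose element name starts with L1Md_ and whose end minus start is under 5000 bases. This gave 113255 of the 3494995 loci in the table, beside 13417 L1Md loci of 5000 bases and over. By subfamily, 60952 were L1Md_F2, 18630 L1Md_T, 15303 L1Md_F3, 13541 L1Md_A, 3860 L1Md_F and 969 L1Md_Gf. Each locus was placed inside a gene (24509 loci) or outside genes (88746 loci) by whether it overlapped a gene span of the RefSeq expression table of the same libraries by at least 1 base. No expression value enters the rule, which was set with earlier results of these data known. At the limit of 5000 bases, the 3 loci just inside it (end minus start of 4999) had between 0 and 3 reads per library, and the 3 loci at 5000 had between 0 and 2. The median length was 629 bases. The rule uses length alone, and the table does not say which end of an element is missing, so a full-length copy that RepeatMasker broke into pieces is counted here too.

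The libraries are total RNA from whole testes of C57BL/6 background mouse embryos at E14.5, 3 labelled wild-type (WT) and 4 labelled Glis3 mutant (n = 3 and n = 4), each made from the testes of a single embryo. The mutant is homozygous for the Glis3 zf5 allele, a germline deletion within exon 4 and the introns on both sides of it that disrupts DNA binding and leaves the other exons in place. Ribosomal RNA was depleted, random primers were used and poly-A tails were not selected, so unspliced and untailed RNA was sequenced with mRNA. The kit did not mark strand, so reads from an L1Md locus and from a transcript on the other strand cannot be told apart.

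A complete L1 element carries its own promoter at the 5′ end, an RNA-binding protein gene and a gene for an endonuclease and reverse transcriptase. New copies are made by reverse transcription that starts at the 3′ end and often stops early, so most copies in the genome lack the 5′ end and its promoter, and RNA over such a copy can begin in a neighbouring or surrounding transcript. The A, T and Gf subfamilies hold the young and still mobile mouse elements, and the F subfamilies are older. Fetal male germ cells erase most of their DNA methylation, and L1 is then held down by histone methylation and by the piRNA pathway, in which PIWI proteins loaded with small RNAs cut L1 transcripts and guide new DNA methylation to L1 promoters.

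Sequence was held for only a small share of these loci. Among the 12 most-read loci, 2 of each subfamily, 3 overlapped an exon outside UTRs whose sequence is in GENCODE M21 (GRCm38, the same assembly as mm10), and these are shown. For each the first 300 bases of the exon, or the whole exon where it is shorter, are printed in the direction of the L1Md element. Capitals mark CpG, the dinucleotide at which DNA methylation is placed.
L1Md_F2 in Gm14719: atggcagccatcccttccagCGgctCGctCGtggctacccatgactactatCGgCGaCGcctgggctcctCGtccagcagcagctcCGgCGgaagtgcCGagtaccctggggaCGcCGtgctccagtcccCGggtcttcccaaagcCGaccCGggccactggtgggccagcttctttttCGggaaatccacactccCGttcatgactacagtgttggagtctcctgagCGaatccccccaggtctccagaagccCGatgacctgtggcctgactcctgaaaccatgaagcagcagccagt
L1Md_F2 in Gm21926: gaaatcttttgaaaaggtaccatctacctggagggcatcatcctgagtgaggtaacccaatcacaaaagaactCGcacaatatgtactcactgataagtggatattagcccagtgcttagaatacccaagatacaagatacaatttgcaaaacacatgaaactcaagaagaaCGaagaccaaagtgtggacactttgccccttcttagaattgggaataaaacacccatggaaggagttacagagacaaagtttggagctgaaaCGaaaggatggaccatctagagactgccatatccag
L1Md_F in Gm20426: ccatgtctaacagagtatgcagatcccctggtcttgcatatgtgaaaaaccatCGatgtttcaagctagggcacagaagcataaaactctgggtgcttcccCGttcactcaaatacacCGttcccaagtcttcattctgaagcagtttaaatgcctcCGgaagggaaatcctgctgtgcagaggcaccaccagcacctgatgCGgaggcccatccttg
The first stretch, chrX:49660960-49661259 on the plus strand, lies within the L1Md_F2 locus chrX:49660803-49662542 and is the exon of the processed pseudogene Gm14719. It held 19 CpG and 62.7% G and C. The second, chr17:3112273-3112572 on the minus strand, begins 25 bases before the L1Md_F2 locus chr17:3111781-3112547 and runs 275 bases into it, in an exon of the transcribed pseudogene Gm21926. It held 3 CpG and 41.7% G and C. The third, chr6:90231728-90231945, is the last 218 bases of the L1Md_F locus chr6:90228863-90231945 on the plus strand and is read on the opposite strand by the transcribed pseudogene Gm20426. In local alignments no pair of these 3 stretches matched over more than 32 bases. All 3 are exons of annotated pseudogenes or parts of them, and the element names are those of the loci. Whether the printed bases, those of the processed pseudogene Gm14719 above all, are L1 sequence was not tested.

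Some truncated loci also overlap annotated promoters, and promoter activity was not tested. Of the 32851 RefSeq promoter windows (GRCm38.p6, 250 bases before to 50 after each gene's start), 22 lay wholly within a truncated L1Md locus, 9 of them in L1Md_F2 and 5 in L1Md_F. In 16 of the 22 the gene ran against the L1Md element and in 6 along it. The 3 such windows in L1Md_F loci that averaged 1 read or more are shown in the direction of the element, with CpG in capitals, because they let the element's own sequence be seen at a gene's start. They were picked after their read counts were known.
L1Md_F at Psme2b: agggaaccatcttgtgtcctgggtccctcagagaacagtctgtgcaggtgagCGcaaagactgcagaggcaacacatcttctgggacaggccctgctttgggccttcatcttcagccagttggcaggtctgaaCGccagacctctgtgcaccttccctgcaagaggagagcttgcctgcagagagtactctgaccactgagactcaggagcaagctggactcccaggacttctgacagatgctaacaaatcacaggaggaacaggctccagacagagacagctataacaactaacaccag
L1Md_F at Gm33534: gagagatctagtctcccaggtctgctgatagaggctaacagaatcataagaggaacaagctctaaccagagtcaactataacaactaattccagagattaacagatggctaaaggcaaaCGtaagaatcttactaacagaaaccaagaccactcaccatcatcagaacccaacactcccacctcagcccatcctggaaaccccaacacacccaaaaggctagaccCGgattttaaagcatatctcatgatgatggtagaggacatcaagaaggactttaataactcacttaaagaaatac
L1Md_F at Gm39807: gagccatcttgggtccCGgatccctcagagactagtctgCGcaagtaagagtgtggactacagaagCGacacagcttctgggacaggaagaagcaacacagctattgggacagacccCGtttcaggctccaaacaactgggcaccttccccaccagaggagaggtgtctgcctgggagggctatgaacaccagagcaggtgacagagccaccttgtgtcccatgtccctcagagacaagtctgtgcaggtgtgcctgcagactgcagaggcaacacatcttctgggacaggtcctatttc
The windows lie at chr11:48946361-48946660 (minus strand), chr2:18878944-18879243 and chr2:44668656-44668955 (both printed from the plus strand). The Psme2b window aligned with the Gm39807 window over 91 bases at 85.7% identity and with the Gm33534 window over 93 bases at 79.6% identity. The Gm33534 and Gm39807 windows aligned with each other over only 29 bases at 69.0% identity. They held 2, 2 and 4 CpG in the printed order, against a median of 7 over all 32851 promoter windows. As many CpG or more were present in 85.9% of all windows for a count of 2 and in 68.6% for a count of 4. The L1Md_F locus at Psme2b, chr11:48946151-48947055, had 30, 14 and 23 reads in WT and 12, 12, 23 and 19 in the mutant, a log2 fold change of -0.14 (SE 0.30, adjusted p = 0.98, edgeR). Psme2b, a copy of a proteasome activator subunit gene, had an FPKM of 124, 109 and 107 in WT and 117, 107, 117 and 110 in the mutant. Neither the locus nor the gene separated the groups, and reads may be split uncertainly between Psme2b and the gene it was copied from. In all, 9 loci that overlapped a promoter window were deep enough to test, and none passed the threshold.

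The libraries held between 3454317 and 4670830 reads in the table, and levels of loci below are in CPM, reads brought to a common library size by the table's total and a TMM scaling factor. Glis3 (chr19:28262448-28680077, minus strand) had an FPKM (fragments per kilobase of transcript, scaled to library size) of 7.63, 6.89 and 2.91 in WT and 3.86, 3.26, 2.90 and 2.66 in the mutant (log2 fold change -0.69, SE 0.28, adjusted p = 0.268, limma, and -1.09, adjusted p = 0.00992, without wild-type replicate 3). The library labelled wild-type replicate 3 thus lay among the mutant libraries for the disrupted gene, and results are also given without it. It was singled out by this value, so the smaller p of Glis3 without it is no separate support. The same limit holds below for genes and loci at which that library lies at mutant level. The summed FPKM of 12 germ cell marker genes was 1605, 1085 and 818 in WT and 758, 712, 748 and 674 in the mutant, without overlap, and none of the 12 was at 0 in a library. In whole testes, fewer cells of a type and less RNA per cell cannot be told apart. The markers of Sertoli cells (1032 to 1306 in WT, 1255 to 1435 in the mutant) and of fetal Leydig cells (1748 to 2868 in WT, 2669 to 3331 in the mutant) overlapped between the groups in sum. By gene, all 7 fetal Leydig markers had log2 fold changes above 0 (median 0.47), and 4 had an unadjusted p under 0.05, where 8.21% of all genes were higher at that level. Insl3, the Leydig cell hormone of testis descent (0.66, adjusted p = 0.133, limma), and Cyp11a1, the first enzyme of steroid synthesis (0.55, adjusted p = 0.186), had all mutant libraries above WT, as did 7.31% of all genes. Of 9 Sertoli markers, 8 were above 0 (median 0.16) and 1 had an unadjusted p under 0.05. By gene, all 12 germ cell markers had log2 fold changes below 0 (median -0.71). Of these, 7 had an unadjusted p under 0.05 (limma), where 8.79% of all genes were lower at that level. No marker of these lists passed the adjusted threshold with all 7 libraries. Without the library labelled wild-type replicate 3, 6 germ cell markers did so, all lower, where 3.99% of all genes were called lower. In that fit 1 Sertoli marker was also called, higher in the mutant. The part of these cells in the levels of the loci was not tested.

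Reads on truncated L1Md loci took a higher share of the mutant libraries, and in sum the difference lay mostly outside genes. Together the loci took 0.915%, 0.79% and 0.869% of all reads in the WT libraries and 0.983%, 0.942%, 0.939% and 0.974% in the mutant. The 4 mutant libraries were all above the 3 WT libraries, and the library labelled wild-type replicate 3 lay between the other WT libraries. Outside genes the summed level was 2588, 2850 and 3149 CPM in WT and 4332, 3511, 4507 and 4734 CPM in the mutant. The lowest mutant library was above the highest WT library, and the mean was 2863 ± 281 (SD, n = 3) in WT and 4271 ± 533 (SD, n = 4) in the mutant, a ratio of 1.49. Inside genes it was 5566, 5332 and 5488 CPM in WT and 5401, 5438, 5770 and 5574 CPM in the mutant, and the groups overlapped. The share of the loci's reads that fell outside genes was 31.7%, 34.8% and 36.5% in WT and 44.5%, 39.2%, 43.9% and 45.9% in the mutant.

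**Figure D1:**
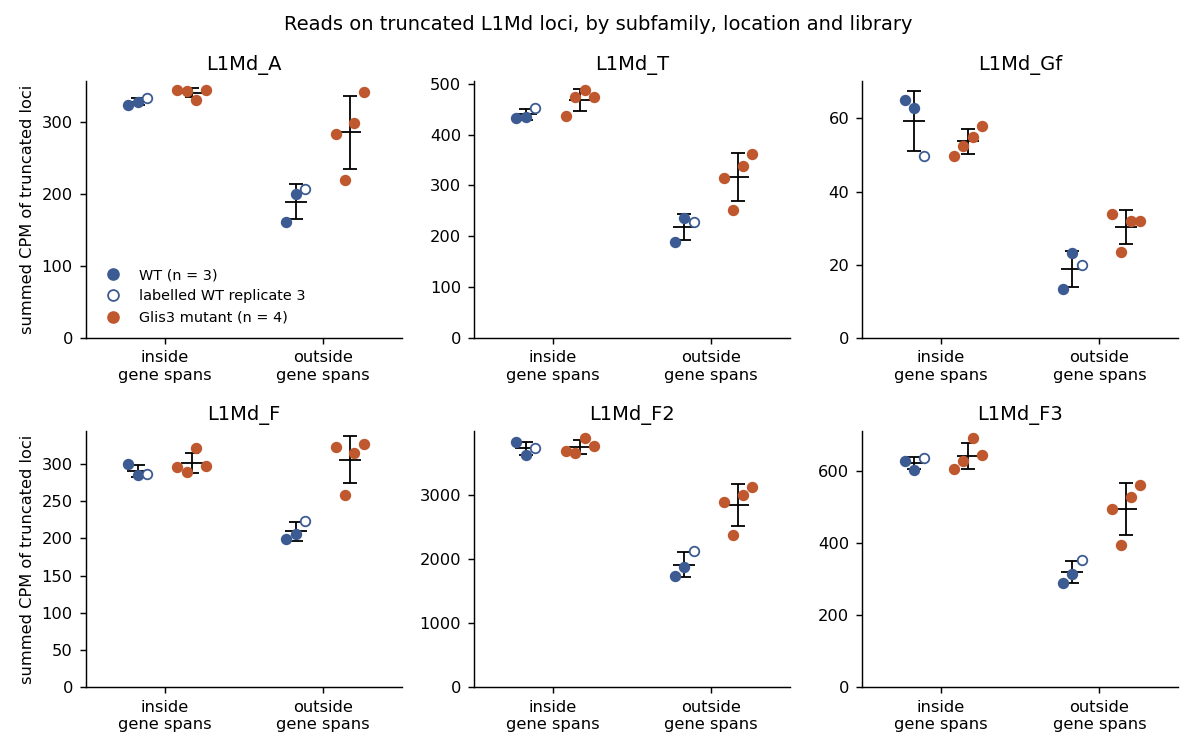
Summed level of truncated L1Md loci (y axis, CPM, from 0) inside and outside gene spans (x axis) for 6 subfamilies, with a point for each library, a bar for the mean and whiskers for 1 SD. Outside genes the mutant points lie above the WT points in each panel, and inside genes the groups overlap in each.

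All 6 subfamilies rose outside genes, and none changed inside genes past the threshold. Sums of reads were tested with edgeR's quasi-likelihood test together with the sums of every other element name (1624 sums, split by length class and location), at an adjusted p of 0.1. Of all sums outside genes, 14% were called higher in the mutant, and 7.08% of all 1624 sums. The most numerous group, L1Md_F2, gave 1736, 1870 and 2118 CPM in WT and 2882, 2365, 2994 and 3111 CPM in the mutant outside genes. Its log2 fold change was 0.57 (SE 0.10, adjusted p = 0.0373). L1Md_F3 gave 290.5, 315 and 352 CPM in WT and 495.9, 393.8, 528.5 and 562 CPM in the mutant, with a log2 fold change of 0.63 (SE 0.12, adjusted p = 0.0384). The groups did not overlap for either subfamily.

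L1Md_F gave 199, 206 and 224 CPM in WT and 323, 259, 315 and 327 CPM in the mutant outside genes, a log2 fold change of 0.54 (SE 0.09, adjusted p = 0.0373). The young subfamilies gave values of the same size with wider errors. L1Md_A gave 160.7, 200.4 and 206.4 CPM in WT and 282.8, 218.7, 298.7 and 340.9 CPM in the mutant, and rose from 189 ± 24.8 to 285 ± 50.7 CPM (SD, n = 3 and n = 4), a log2 fold change of 0.59 (SE 0.14, adjusted p = 0.0669). L1Md_T gave 188.6, 235.4 and 228.7 CPM in WT and 314.5, 250.6, 338.6 and 361.5 CPM in the mutant, and rose from 218 ± 25.3 to 316 ± 47.8 CPM, a log2 fold change of 0.54 (SE 0.13, adjusted p = 0.0633). L1Md_Gf, with the fewest loci, rose from 18.8 ± 5.0 to 30.3 ± 4.7 CPM, a log2 fold change of 0.71 (SE 0.20, adjusted p = 0.0934). In each of the 3 young subfamilies every mutant library was above every WT library, by the smallest margin in L1Md_Gf, where the highest WT library had 23.1 CPM and the lowest mutant library 23.4 CPM.

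Other elements outside genes were higher too. The median log2 fold change over all 781 sums outside genes was 0.23, and over all 843 sums inside genes 0.05, so the 6 values for truncated L1Md loci outside genes were above the median of their location. Other elements outside genes, taken as 1 sum, gave 145227, 170008 and 153445 CPM in WT and 174519, 161596, 189055 and 188769 CPM in the mutant, a ratio of 1.14 with overlap. As a share of the reads of those other elements, reads outside genes made up 16.5%, 16.6% and 15.6% in WT and 17.9%, 17.2%, 17.5% and 18.1% in the mutant. Whether the rise of truncated L1Md loci is more than a part of this shift was not tested.

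The calls for sums outside genes depended on single libraries. Without the library labelled wild-type replicate 3, L1Md_F (0.59), L1Md_F2 (0.65) and L1Md_F3 (0.71) kept their calls (adjusted p = 0.0466 each). L1Md_A (0.66), L1Md_T (0.58) and L1Md_Gf (0.76) then had an adjusted p of 0.129, 0.133 and 0.176. Leaving out wild-type replicate 1 or mutant replicate 1, 3 or 4 left 0 of the 6 calls, with log2 fold changes between 0.45 and 0.68.

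Inside genes the sums of all 6 subfamilies had log2 fold changes between -0.14 (L1Md_Gf) and 0.09 (L1Md_T), none past the threshold, none with an unadjusted p under 0.05 in edgeR and none past the threshold in DESeq2. L1Md_F2, with 13651 loci inside genes, gave 3817, 3619 and 3730 CPM in WT and 3671, 3651, 3884 and 3755 CPM in the mutant, a log2 fold change of 0.01 (SE 0.04). The difference between the 2 locations was itself tested, as an interaction within libraries over 753 sums. The change inside genes was below that outside by 0.53 (log2, SE 0.14, adjusted p = 0.0547) in L1Md_A, 0.45 (SE 0.13, adjusted p = 0.0607) in L1Md_T and 0.85 (SE 0.24, adjusted p = 0.0607) in L1Md_Gf. In L1Md_F it was below by 0.49 (SE 0.10, adjusted p = 0.0218), in L1Md_F2 by 0.56 (SE 0.10, adjusted p = 0.0167) and in L1Md_F3 by 0.58 (SE 0.11, adjusted p = 0.0167). All 6 passed the threshold, where 10.5% of all sums passed it and 10.4% did so in this direction, and the median of all 753 differences was -0.18. With the library labelled wild-type replicate 3 left out, all 6 still passed it. Without wild-type replicate 1 only L1Md_F2 and L1Md_F3 passed it, and without mutant replicate 1, 3 or 4 L1Md_A, L1Md_T and L1Md_Gf missed it (adjusted p from 0.117 to 0.172), with the change inside genes still below that outside in each.

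The change of truncated loci was compared with that of L1Md loci of 5000 bases and over. Outside genes the long loci of the 6 subfamilies had log2 fold changes between 0.27 (L1Md_A, SE 0.19) and 0.71 (L1Md_F2, SE 0.14). Over both locations, the change of truncated loci minus that of long loci had a 95% interval of -0.17 to 0.41 for L1Md_A, -0.15 to 0.14 for L1Md_T and -0.58 to 0.29 for L1Md_Gf. The intervals were -0.54 to 0.21 for L1Md_F, -0.21 to 0.02 for L1Md_F2 and -0.22 to 0.12 for L1Md_F3. None of the 6 differences passed the threshold (edgeR, unadjusted p between 0.0872 and 0.906), nor did any of the 57 element names tested (0%). A difference between the length classes was therefore not detected over both locations together, and the intervals bound only that pooled difference. The location make-up differed, with WT means of 5462 CPM inside and 2863 outside genes for truncated loci and 2114 and 1525 for long loci. The length classes were not tested against each other outside genes alone.

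**Figure D2:**
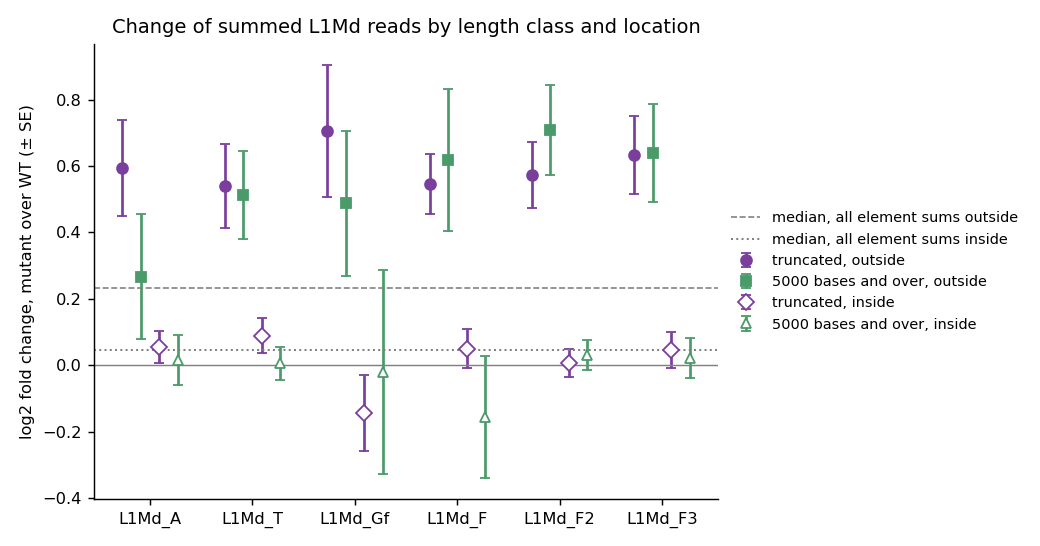
Log2 fold change of summed reads, mutant over WT (y axis, whiskers for 1 SE), for truncated and long L1Md loci inside (open) and outside (filled) gene spans in 6 subfamilies (x axis). The filled points lie between 0.27 and 0.71 and the open truncated points between -0.14 and 0.09, with dashed and dotted lines at the medians of all element sums outside (0.23) and inside (0.05) genes.

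Most of the difference outside genes lay in loci with very few reads. Of the 88746 loci outside genes, 58418 (65.8%) had no read in any library, and only 1708 averaged 1 read or more. Those 1708 loci held 47.3% of the reads outside genes and summed to 1585 ± 28.3 CPM in WT and 1809 ± 103 CPM in the mutant, a ratio of 1.14. The 87038 loci below that mean summed to 1278 ± 253 and 2462 ± 464 CPM, a ratio of 1.93. In both sets every mutant library was above every WT library. Summed over the deeper loci alone, no subfamily was called outside genes, with log2 fold changes between 0.17 and 0.59. The number of loci outside genes with at least 1 read was 5989, 5171 and 7055 in WT and 9228, 6924, 8614 and 10383 in the mutant, and mutant replicate 2 lay below the library labelled wild-type replicate 3. Inside genes, where 4005 of 24509 loci reached the mean of 1 read and held 86.1% of the reads, the deeper loci gave a ratio of 0.982 and the 20504 others a ratio of 1.25 without overlap (673 ± 41.0 and 842 ± 84.3 CPM). Per megabase of element, the loci below that mean were higher in the mutant by 12.5 CPM inside genes and by 15.2 CPM outside.

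The difference was spread over loci of each length. Outside genes, loci under 500 bases had 47.7 CPM per megabase of element in WT and 65.25 in the mutant, and those of 500 to 1000 bases 29.1 and 45.5. Loci of 1000 to 2000 bases had 42.2 and 59.5, and those of 2000 to 5000 bases 32.3 and 49.98. The mutant libraries were all above the WT libraries in each length class, and the difference lay between 16.35 and 17.7 CPM per megabase in all 4.

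The ratio grew with distance from the nearest gene span. Within 10000 bases of a gene, truncated L1Md loci had 125, 134 and 133 CPM per megabase in WT and 151, 143, 168 and 153 in the mutant, a ratio of 1.18. From 10000 to 50000 bases the ratio was 1.42, and from 50000 to 200000 bases it was 1.68. At 200000 bases and over, the 35378 loci had 13.6, 16.1 and 20.6 CPM per megabase in WT and 33.5, 23.8, 35.3 and 39.2 in the mutant, a ratio of 1.97. The groups did not overlap in any of the 4 distance classes. The level was lower with each step of distance in both genotypes, while the difference was 23.0, 16.9, 16.7 and 16.2 CPM per megabase from the nearest class to the farthest. All other annotated elements had higher densities at each distance and ratios of 1.08, 1.14, 1.21 and 1.52 in the same order, and their groups separated only in the farthest class. Their differences, 57.95, 29.9, 38.8 and 23.9 CPM per megabase, were larger than those of L1Md in every class.

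**Figure D3:**
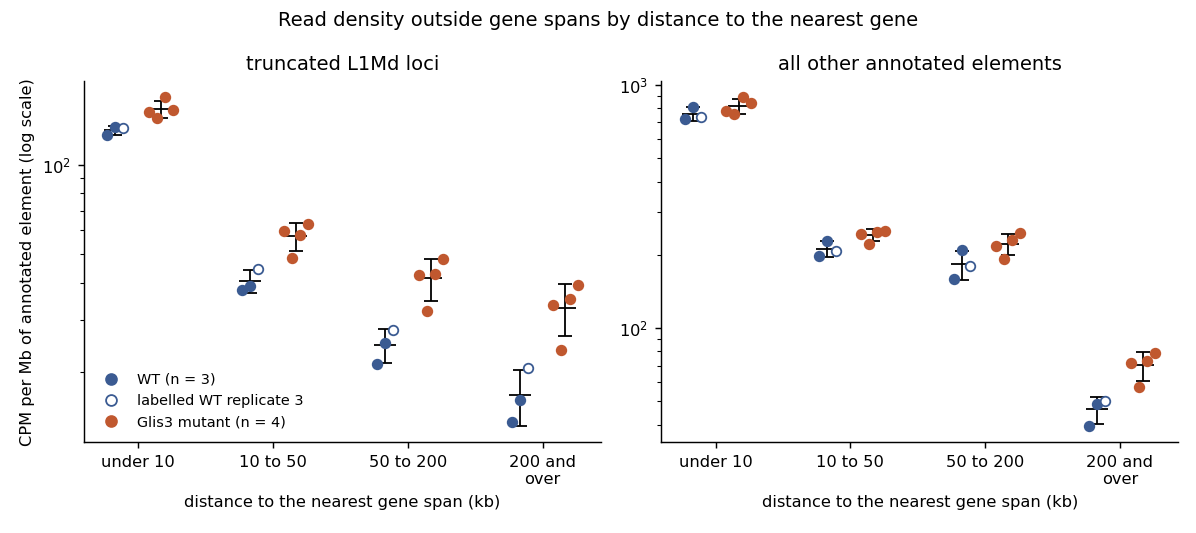
Read density (y axis, CPM per megabase of annotated element, log scale) by distance to the nearest gene span (x axis, kb) for truncated L1Md loci (left) and all other elements (right), with a point for each library, the mean and 1 SD. On the left the mutant points lie above the WT points in each class and the gap widens on the log scale with distance, and on the right the groups separate only at 200 kb and over.

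On the autosomes, truncated L1Md loci at least 200000 bases from a gene had 16.5, 19.4 and 24.5 CPM per megabase in WT and 40.6, 28.8, 43.1 and 47.5 in the mutant. On the X chromosome the same class had 7.88, 11.2 and 15.2 in WT and 20.2, 13.5, 19.2 and 23.4 in the mutant, and mutant replicate 2 lay below the library labelled wild-type replicate 3. In this class the mutant exceeded WT by 19.8 CPM per megabase on the autosomes and by 7.67 on the X chromosome, and other elements at the same distance by 27.8 and 17.2. Over all distances outside genes truncated L1Md loci had 40.35 CPM per megabase in WT and 60.3 in the mutant on the autosomes (ratio 1.49), 21.6 and 31.0 on the X chromosome (1.44) and 3.10 and 5.49 on the Y chromosome (1.77). All mutant libraries lay above WT in each of these 3. The source of these sparse reads, which are spread over loci far from genes, was not tested.

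Few single loci differed. Of the 113255 loci, 5713 averaged 1 read or more and were tested with the 464695 such loci of the whole table, where 0.0807% were called at an adjusted p of 0.1, 0.0594% lower and 0.0213% higher. Of the truncated L1Md loci 2 were called (0.035%), both L1Md_F2, both lower in the mutant and neighbours on chromosome 7. The median log2 fold change of the 5713 loci was 0.09, against 0.02 for all loci tested. An unadjusted p under 0.05 was found for 303 of the 5713 loci (5.3%), against 4.74% of all loci. DESeq2 called none of them and only 15 of all 464695 loci, of which it gave an adjusted p to 77285. It gave an unadjusted p under 0.05 for 78 truncated L1Md loci, for which no share over all loci was taken.

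The 4 mutant libraries were all above the 3 WT libraries at 230 of the 5713 loci (4.03%, against 3.12% of all loci tested) and all below at 126 (2.21%, against 2.84%). Outside genes the counts were 125 of 1708 higher (7.32%, against 3.96% of all loci outside genes) and 16 lower (0.937%, against 2.12%). Inside genes 105 of 4005 were all higher (2.62%, against 2.96%) and 110 all lower (2.75%, against 2.97%). The loci inside genes thus separated no more often than the background in either direction. The loci were chosen by depth over all libraries, and these shares are descriptions without a test.

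The locus called most strongly, chr7:43192104-43195315 on the minus strand, lies at the 3′ end of Zfp936, a zinc finger protein gene on the plus strand, and overlaps the end of its last exon in the UTR. It had 124, 103 and 32 reads in WT and 31, 34, 30 and 29 in the mutant. Wild-type replicates 1 and 2 stood far above the other 5 libraries, and the library labelled wild-type replicate 3 had the lowest CPM of the 7. The log2 fold change was -1.20 (SE 0.22, adjusted p = 0.000169, edgeR) and -1.59 without that library. Zfp936 itself had an FPKM of 6.91, 7.90 and 3.27 in WT and 3.28, 2.31, 3.22 and 2.54 in the mutant, again with wild-type replicates 1 and 2 apart from the rest. Its log2 fold change was -0.90 (SE 0.26, adjusted p = 0.186, limma) and -1.25 without that library (adjusted p = 0.00778).

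The second called locus, chr7:43195510-43198527 on the minus strand, begins beyond the first and is 3401 bases from the gene span. It had 140, 93 and 24 reads in WT and 34, 40, 50 and 26 in the mutant, a log2 fold change of -0.89 (SE 0.21, adjusted p = 0.0487), and -1.32 without the library labelled wild-type replicate 3. That library had the lowest level of the 7 here too. One more L1Md_F2 locus of the same stretch, chr7:43227466-43228155, had 43, 27 and 22 reads in WT and 14, 15, 17 and 9 in the mutant, all 4 below WT, with a log2 fold change of -0.86 that missed the threshold (adjusted p = 0.691). It was singled out after its values were seen. From position 43092873 to 43368850 of chromosome 7, 7 truncated L1Md loci were tested, 5 of them below 0 in log2 fold change and 2 above. The 2 above 0 were L1Md_F2 loci with few reads, starting at 43323065 (1, 2 and 1 reads in WT and 1, 1, 4 and 1 in the mutant, log2 fold change 0.62) and at 43368229 (0, 0 and 2 and 0, 3, 3 and 0, 1.29), with overlapping groups. Both calls were lost without wild-type replicate 2, and the second also without wild-type replicate 1 or mutant replicate 1, 2 or 4.

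**Figure D4:**
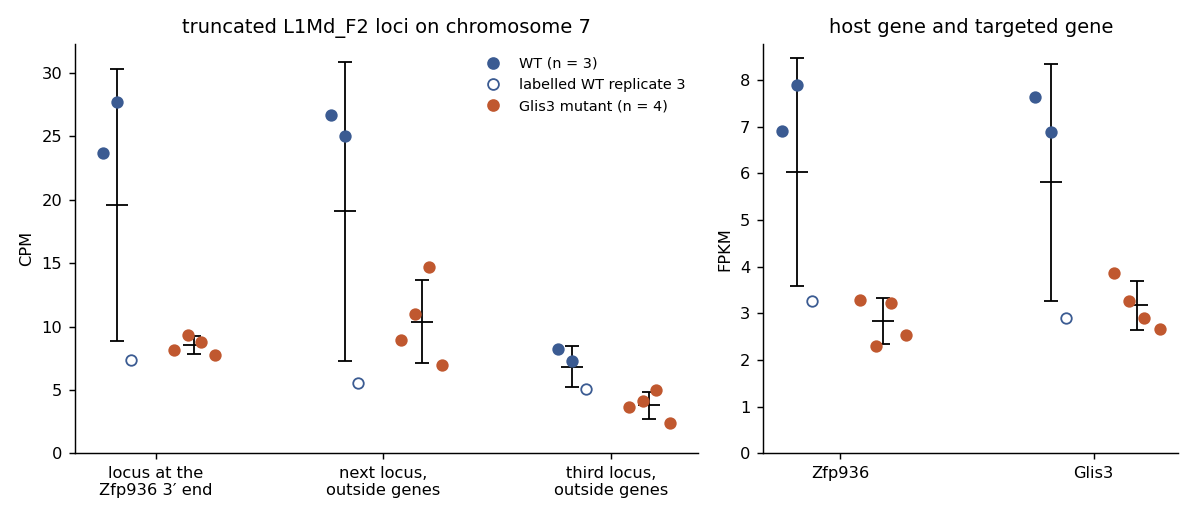
Level of 3 neighbouring truncated L1Md_F2 loci on chromosome 7 (left, CPM) and of Zfp936 and Glis3 (right, FPKM) in each library, with the mean and 1 SD, both y axes from 0. Wild-type replicates 1 and 2 stand above the mutant libraries for the first and second loci and for both genes, and the open point of the library labelled wild-type replicate 3 lies at mutant level for these.

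None of the 12 most-read loci passed the threshold. The L1Md_F2 locus over the Gm14719 pseudogene on the X chromosome, whose sequence is given above, had 371, 178 and 246 reads in WT and 304, 238, 201 and 172 in the mutant, with broad overlap (log2 fold change 0.10, SE 0.17). The locus in Gm21926 on chromosome 17 had 210, 160 and 175 reads in WT and 149, 151, 165 and 172 in the mutant (0.09, SE 0.17), and the L1Md_F locus in Gm20426 had 238, 187 and 170 in WT and 178, 127, 148 and 158 in the mutant (-0.10, SE 0.17). All 3 lie outside the gene spans used here but in annotated pseudogenes, and their levels in the 2 groups overlapped. Such exonic loci were 682 of the 88746 outside genes, and without them the 6 log2 fold changes outside genes were 0.58 to 0.69, all past the threshold.

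The L1Md_Gf locus with most reads, chr17:30500005-30504719, lies in an intron of Btbd9 against the direction of the gene and had 208, 139 and 145 reads in WT and 118, 130, 113 and 143 in the mutant (log2 fold change -0.09, SE 0.18). The most-read L1Md_A locus, chr2:86023585-86027556, lies within the olfactory receptor gene Olfr1033 against its direction and had 151, 94 and 110 reads in WT and 108, 120, 78 and 83 in the mutant (0.01, SE 0.19). The most-read L1Md_F3 locus, chr11:33159455-33159531, lies in an intron of Npm1, the gene of the abundant nucleolar protein nucleophosmin, and had 128, 78 and 101 reads in WT and 75, 76, 57 and 76 in the mutant. In CPM its groups did not overlap (22.9 ± 1.76 and 19.4 ± 1.86), and the log2 fold change of -0.24 (SE 0.19, adjusted p = 0.98) missed the threshold. The second most-read loci were in or beside Cyp51 (L1Md_A), Mme (L1Md_T), Pou6f1 (L1Md_Gf), Spopl (L1Md_F) and outside genes on chromosome 9 (L1Md_F3). Their log2 fold changes lay between -0.51 (Pou6f1, SE 0.26) and 0.37 (Mme, SE 0.22), none past the threshold.

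The Pou6f1 locus, 46 bases in the UTR of this POU transcription factor gene at chr15:100576219-100576264, again set wild-type replicates 1 and 2 apart. It had 56, 41 and 15 reads in WT and 29, 17, 24 and 16 in the mutant, and Pou6f1 had an FPKM of 3.94, 3.52 and 2.09 in WT and 2.87, 2.42, 2.13 and 2.32 in the mutant. The library labelled wild-type replicate 3 was the lowest of the 7 for both.

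Because fewer than 5 loci passed, the 5 with the smallest p in each direction were also taken, none of which passed the threshold. Among those lower in the mutant, the L1Md_F2 locus chr6:51570114-51571446 in Snx10, a sorting nexin gene, had 10, 4 and 6 reads in WT and 0, 2, 0 and 1 in the mutant (adjusted p = 0.41). The L1Md_F2 locus chrX:169976479-169976757, in an exon of G530011O06Rik within the span of Mid1, had 3, 2 and 5 reads in WT and none in the mutant. With 10 WT reads and a floor of 3 reads over the mutant group, it was at least 3.66-fold lower (adjusted p = 0.554). It reached the depth filter through the WT libraries alone and was picked for small p, so this bound is no support for a change. Its host transcript G530011O06Rik had an FPKM of 0.860, 0.699 and 0.890 in WT and 0.0407, 0.103, 0.0793 and 0.0795 in the mutant, below the level at which genes were tested. In both the locus and its host, the library labelled wild-type replicate 3 lay with the other WT libraries and apart from the mutant.

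The other 3 lower loci lay outside genes, and 2 of them had no read in the library labelled wild-type replicate 3. The L1Md_F2 locus chr3:124115500-124117074 had 9, 3 and 0 reads in WT and none in the mutant, at least 4.39-fold lower (adjusted p = 0.31). Its groups overlapped, and it too reached the depth filter through WT reads alone, so this bound is no support for a change. The L1Md_F2 locus chr5:68375679-68376592 had 5, 15 and 0 reads in WT and 2, 1, 0 and 0 in the mutant (adjusted p = 0.339). The L1Md_F2 locus chr13:119611890-119612884 had 4, 23 and 21 reads in WT and 8, 3, 2 and 7 in the mutant (adjusted p = 0.37). The first and second of these passed the threshold once the library labelled wild-type replicate 3 was left out (adjusted p = 0.0632 and 0.0265), and the third did so without wild-type replicate 1 (adjusted p = 0.00849). In each case the library left out was the WT library with the fewest reads at the locus, so these calls are no separate support.

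The 5 loci higher in the mutant, picked for their small p, all separated the groups, as did 3.12% of all loci tested. The L1Md_F2 locus chr5:26063359-26064404, outside genes, had 28, 16 and 17 reads in WT and 35, 33, 32 and 30 in the mutant, a log2 fold change of 0.96 (SE 0.27, adjusted p = 0.277). The L1Md_F2 locus chr10:23827152-23827541 lies in the UTR of Slc18b1, a vesicular polyamine transporter gene, and had 31, 17 and 38 reads in WT and 47, 40, 37 and 46 in the mutant (log2 fold change 0.85, SE 0.24, adjusted p = 0.331). It passed the threshold without the library labelled wild-type replicate 3 (1.13, adjusted p = 0.0818), the WT library with the highest level there. Slc18b1 had an FPKM of 3.57 to 4.05 in WT and 4.48 to 5.21 in the mutant, without overlap (log2 fold change 0.35, adjusted p = 0.173).

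The L1Md_F3 locus chrX:16687132-16687397 lies in the UTR of Maoa, which encodes monoamine oxidase A, and had 24, 14 and 26 reads in WT and 35, 34, 31 and 32 in the mutant (log2 fold change 0.91, SE 0.27, adjusted p = 0.391). Maoa had an FPKM of 21.1 to 24.2 in WT and 24.65 to 27.4 in the mutant, a log2 fold change of 0.18 (adjusted p = 0.247). At both UTR loci and in both host genes every mutant library lay above WT, as in 7.31% of all genes tested. The loci were named for their small p, and the sizes of change at locus and host are not compared. The last 2 loci had no read in WT, reached the depth filter through the mutant libraries alone and were picked for small p. Their fold bounds are therefore no support for a change. The L1Md_F2 locus chr5:13339204-13342147, outside the gene spans but within the GENCODE model of Sema3a, had 2, 3, 2 and 5 reads in the mutant and was at least 3.65-fold higher. The L1Md_F3 locus chr18:45846459-45851118 in A330093E20Rik had 4, 1, 3 and 3 and was at least 3.34-fold higher, and neither passed the threshold (adjusted p = 0.439 and 0.554).

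Loci inside genes were also set beside their host genes. For 3706 tested loci that lay in a single gene span with a tested gene, the log2 fold changes of locus and host had a Pearson correlation of 0.13 (Spearman 0.10), and 52.5% had the same sign. Among the 356 of them that averaged 10 reads or more the correlation was 0.23 (Spearman 0.17). The points share the 7 libraries and their reads, and several loci share a gene (1864 genes), so these values are descriptions. In sum, the level was similar in both directions of the element. The 14304 loci that run against their host gene had 296 CPM per megabase in WT and 301 in the mutant, and the 9717 loci that run along it had 320 and 325, with overlapping groups in both. By subfamily the 2 directions differed more, and not in one order. In WT, loci against and along the host gene had 95.6 and 156 CPM per megabase for L1Md_T, 697 and 247 for L1Md_Gf (62 and 47 loci), 583 and 457 for L1Md_F, 154 and 135 for L1Md_A, 372 and 416.5 for L1Md_F2 and 352 and 359 for L1Md_F3. The levels of WT and mutant overlapped in each of these 12 classes.

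The genes that silence L1 were examined in the same libraries, from lists of 49 genes of which 47 were expressed enough to test. None passed the threshold (adjusted p of 0.05, limma), where 0.00715% of all genes did, and 23 had an unadjusted p under 0.05, 20 of them lower in the mutant. Of all genes tested, 8.79% were lower at that level. Without the library labelled wild-type replicate 3, 19 of the 47 were called, all lower, where 5.15% of all genes were called and 3.99% were called lower. That library lay at mutant level for genes such as Mael and Mov10l1, so the 19 calls are no separate support. With any other single library left out, 0 genes of the lists were called.

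The piRNA pathway had the lowest median of the 4 lists, with all 18 tested genes below 0 in log2 fold change (median -1.09), 10 with an unadjusted p under 0.05, and 15 called lower without the library labelled wild-type replicate 3. Ddx4, an RNA helicase of germ granules, had an FPKM of 102, 94.8 and 53.1 in WT and 39.8, 33.6, 42.2 and 34.9 in the mutant, all 4 below WT (log2 fold change -1.08, SE 0.21, adjusted p = 0.136). Mov10l1, the helicase that hands precursor RNA to piRNA production, had 17.99, 18.85 and 4.75 in WT and 6.85, 4.47, 4.31 and 2.92 in the mutant (log2 fold change -1.32, SE 0.45, adjusted p = 0.217). Mael, needed for L1 silencing in fetal germ cells, had 67.1, 128 and 18.8 in WT and 30.6, 18.2, 15.7 and 12.9 in the mutant. Tdrkh, a Tudor protein of the mitochondrial surface, had 6.42, 6.84 and 4.31 in WT and 2.78, 3.02, 3.43 and 2.74 in the mutant, again all below WT. The library labelled wild-type replicate 3 lay at mutant level for Mov10l1 and Mael and between the groups for Ddx4 and Tdrkh.

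**Figure D5:**
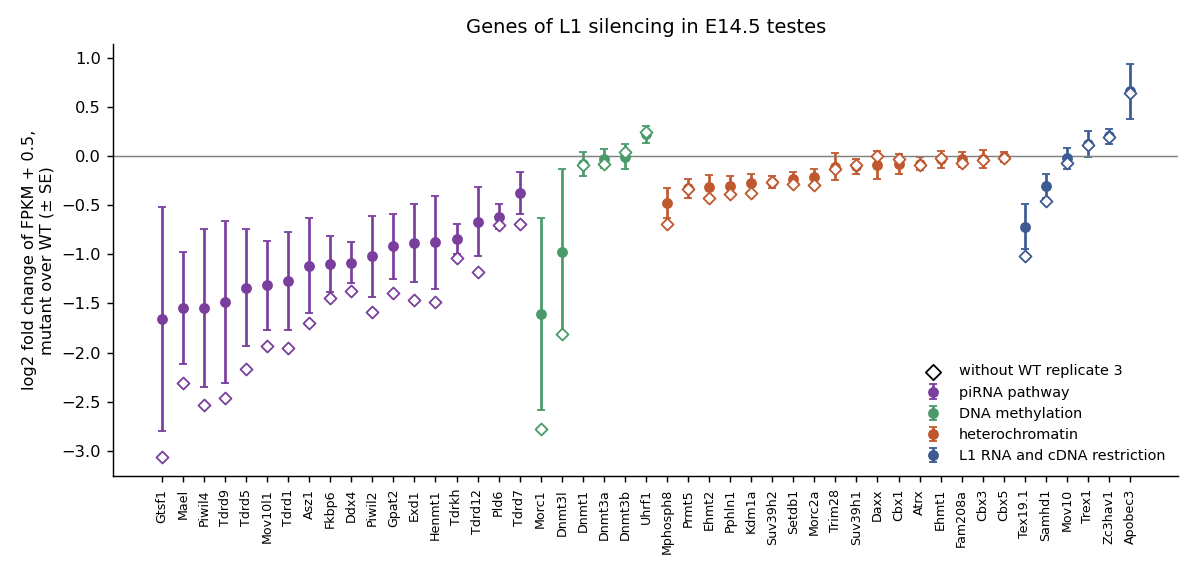
Log2 fold change of FPKM + 0.5, mutant over WT (y axis), of 47 L1 silencing genes in 4 lists (x axis), filled with 1 SE for all 7 libraries and open without the library labelled wild-type replicate 3. All 18 genes of the piRNA pathway lie below 0 in both, and most genes of the heterochromatin list lie within 0.5 of 0.

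The 17 genes of heterochromatin formation lay close to 0. All 17 had log2 fold changes below 0 (median -0.11), 8 had an unadjusted p under 0.05 and 7 had all mutant libraries below WT, as did 7.59% of all genes tested. Among these were Setdb1 (-0.23), the histone H3 lysine 9 methyltransferase that acts with TRIM28, and the related Suv39h2 (-0.26). Mphosph8, a HUSH complex subunit that binds methylated histone and silences L1, had an FPKM of 38.65, 39.6 and 24.7 in WT and 25.3, 24.0, 24.6 and 22.3 in the mutant (-0.47, SE 0.15, adjusted p = 0.205). It was called without the library labelled wild-type replicate 3 (-0.69, adjusted p = 0.00643). Among 6 DNA methylation genes, 1 had an unadjusted p under 0.05, Uhrf1 (0.22), which directs DNMT1 to newly copied DNA. Dnmt3l, the cofactor for new methylation of L1, had 0.883, 7.35 and 0.0754 FPKM in WT and 1.95, 0.424, 0.0813 and 0.0826 in the mutant, with a wide spread in both groups. Among 6 genes that restrict L1 RNA or cDNA, Tex19.1 (-0.72) and Samhd1 (-0.30) were lower and Zc3hav1 (0.20) and Apobec3 (0.66) higher at an unadjusted p under 0.05. The summed germ cell markers given above were also lower in the mutant. In their sum the library labelled wild-type replicate 3 lay above all mutant libraries. By gene it lay within the mutant range for Pou5f1, Dppa3, Nanog, Sycp3, Dnd1 and Nanos3. It lay above that range for Dazl, Sall4, Dppa5a, Tfap2c, Prdm1 and Kit. In the summed FPKM of the piRNA pathway that library (170) lay within the mutant range (124 to 215). The part of germ cells in these values was not tested.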

How the data were processed

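Per the labels and the study's methods, paired-end reads of each library were mapped to mm10 with TopHat2 2.0.12 without strand. The authors counted uniquely mapped reads per RepeatMasker LINE, SINE and LTR locus with HTSeq, and these deposited counts are whole numbers without normalization. The deposited FPKM values per RefSeq gene were made by the authors with the Cufflinks tools (the submitters' processing notes name Cuffdiff 2.1.1). Unique mapping leaves out reads that young, near-identical L1Md copies share, so their counts are the least complete. No per-sample column was left unused (0).

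Loci were placed inside or outside gene spans with bedtools 2.31.1. Loci that averaged 1 read or more per library, and sums that averaged 10 or more over element name, length class and location, were tested with edgeR 4.0.16 (quasi-likelihood test, TMM, R 4.3.3) over the whole table at a Benjamini-Hochberg adjusted p of 0.1. The inside against outside and truncated against long differences were interaction terms over libraries. Genes with a mean FPKM of at least 0.5 were tested with limma 3.58.1 on log2(FPKM + 0.5) at an adjusted p of 0.05, a scale that understates the change of low genes. The edgeR fits of loci, sums and interactions and the limma fit of genes were tested on simulated data. DESeq2 1.42.0, other scalings, filters and length limits, and leaving out each library were alternatives. Annotations came from GENCODE M21.

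Loci were named if they passed the threshold, if they were among the 2 with the highest mean CPM of a subfamily, or, as fewer than 5 passed, among the 5 with the smallest p in each direction. The members, gene lists and rules were chosen with earlier results of these data known. Floors (3 reads over a group of libraries) cover counting error only. The values of 1 of the 12 most-read loci are not reported here.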

Additional observations from a re-analysis of the deposited data

Results flagged for a closer look

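In 2 of the 38 sets of mutant values examined, the sums of truncated loci and the named loci, 1 of the 4 mutant libraries stood apart from the others by Dixon's ratio of the gap to the range (95% critical value). Chance gives about 1 in 20 such sets. Outside genes, the L1Md_F sum was 258.8 CPM in mutant replicate 2 and 322.6, 315.2 and 326.8 in the others, a ratio of 0.8292. Inside genes, the L1Md_A sum was 330.7 CPM in mutant replicate 3 and 344.8, 343 and 344.4 in the others, a ratio of 0.8683. Mutant replicate 2 was the lowest mutant library for all 6 sums outside genes, and without it all 6 were called, with an adjusted p between 0.002076 and 0.03032.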

How the results depend on the processing

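Low depth limits these results: 61.6% of the loci had no read, the single-locus calls rest on 2 WT libraries, and the sums outside genes come largely from loci too shallow to test alone. The library labelled wild-type replicate 3 cannot be resolved from the labels. The log2 fold changes of the sums outside genes stayed above 0 under every alternative run, while 40 of these 96 values missed the threshold. The causes of the changes below were not tested.

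With the replicate number as a block, the log2 fold changes outside genes were 0.49 (L1Md_A), 0.47 (L1Md_T), 0.69 (L1Md_Gf), 0.51 (L1Md_F), 0.52 (L1Md_F2) and 0.56 (L1Md_F3), none past the threshold (adjusted p from 0.1002 to 0.3367), and 1 locus was called. Samples with the same number did not deviate together (correlations from -0.09 to 0.04 over 3 pairs). These are 3 values from noisy counts of single loci, so they cannot settle whether the numbers pair the samples. The inside minus outside and truncated minus long differences were taken within libraries and have no such fit. With loci of a mean of at least 1 read only, the sums outside genes gave 0.24 (L1Md_A), 0.17 (L1Md_T), 0.59 (L1Md_Gf), 0.20 (L1Md_F), 0.18 (L1Md_F2) and 0.24 (L1Md_F3), and the inside minus outside differences were -0.20, -0.15, -0.73, -0.17, -0.22 and -0.26 in the same order, none past the threshold. Under that setting the sums inside genes were -0.0388 (L1Md_F2) and -0.0166 (L1Md_F3), and truncated minus long for L1Md_T was 0.0117.

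With a length limit of 3000 bases L1Md_Gf missed the threshold outside genes (0.60) and inside minus outside (-0.84), and L1Md_F inside genes was -0.0021. With library size alone the sums inside genes were -0.0177 (L1Md_A), -0.0280 (L1Md_F), -0.0698 (L1Md_F2) and -0.0322 (L1Md_F3), and with DESeq2's size factors that of L1Md_F2 was -0.0199. Without the 10 most-read loci of each group, chosen after seeing the data, L1Md_Gf inside minus outside was -0.72 and missed the threshold, and truncated minus long was 0.0214 for L1Md_T and 0.25 for L1Md_Gf. The number of loci called was 0 with DESeq2, 0 under 3000 bases and 0 with a mean of at least 10 reads. Over the whole table the calls were 15 of 464695, 375 of 464695 and 17 of 60909 loci in the same order.

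Leaving out each library in turn, the sums outside genes ranged from 0.49 to 0.70 (L1Md_A), 0.45 to 0.63 (L1Md_T), 0.50 to 0.86 (L1Md_Gf), 0.51 to 0.61 (L1Md_F), 0.51 to 0.65 (L1Md_F2) and 0.56 to 0.72 (L1Md_F3). Inside genes they ranged from 0.03 to 0.07 (L1Md_A), 0.06 to 0.12 (L1Md_T), -0.25 to -0.06 (L1Md_Gf), 0.01 to 0.08 (L1Md_F), -0.0372 to 0.0299 (L1Md_F2) and -0.0016 to 0.0728 (L1Md_F3). Inside minus outside ranged from -0.66 to -0.43 (L1Md_A), -0.56 to -0.36 (L1Md_T), -1.03 to -0.55 (L1Md_Gf), -0.55 to -0.43 (L1Md_F), -0.64 to -0.48 (L1Md_F2) and -0.68 to -0.51 (L1Md_F3). Truncated minus long ranged from -0.0176 to 0.22 (L1Md_A), -0.0351 to 0.0074 (L1Md_T), -0.20 to -0.03 (L1Md_Gf), -0.24 to -0.07 (L1Md_F), -0.13 to -0.07 (L1Md_F2) and -0.10 to 0.0045 (L1Md_F3). Loci called ranged from 0 (without wild-type replicate 2) to 5 and silencing genes called from 0 to 19 (both highest without the library labelled wild-type replicate 3).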
